A study of Homo sapiens with 18 samples.

Results

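The 38 genes described here encode the enzymes of glycolysis, the transporters that bring glucose in and carry lactate out, the hypoxia-inducible factor (HIF) subunits with the enzymes that sense oxygen for them, and well-known HIF target genes. They were taken from a fixed list of symbols, each matched to 1 Ensembl gene identifier, out of 63677 identifiers in every count table and 21028 genes that passed the filter on low counts. All 38 were matched and all 38 passed that filter. The list falls into 9 roles: oxygen sensing and HIF subunits (5 genes), glucose uptake and the preparatory phase of glycolysis (13), the payoff phase (6), pyruvate fate and lactate export (4), pH control (2), angiogenic and secreted factors (2), mitophagy (2), stress adaptors (2) and collagen hydroxylation (2).

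RNA was sequenced from the established human cell lines PANC1, COLO357 and SUIT2, all 3 from pancreatic ductal adenocarcinoma. Each line gave 6 libraries, taken 48 h after transfection: 1 with a control siRNA, 2 with siRNAs against KMT2D (siRNA1 and siRNA2) and 3 with siRNAs against KMT2C (siRNA1, siRNA2 and siRNA3). KMT2C and KMT2D methylate histone H3, mainly at enhancers, and the study asked what their depletion does to gene expression. The labels name no oxygen or glucose treatment, and they separate the libraries of a line by siRNA alone.

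In cells with enough oxygen, prolyl hydroxylases of the EGLN family mark the HIF alpha subunits (HIF1A and EPAS1, also called HIF-2 alpha) for destruction. When oxygen is short the alpha subunits persist, pair with ARNT and bind a short core motif, ACGTG or GCGTG, near genes for glucose import, glycolysis, lactate export, acid handling and blood vessel growth. Pancreatic ductal adenocarcinoma is known as a poorly perfused tumour with high glucose use. HIF activity is set largely at the protein level, which these RNA counts do not measure.

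Gene counts per library ran from 14205640 to 32115894. KMT2D lay at 34.8% to 84.7% of the control of its line in the 6 KMT2D siRNA libraries, with the smallest decreases in PANC1 (79.9% and 84.7%). KMT2C lay at 43.2% to 82.1% in 8 of the 9 KMT2C siRNA libraries. By edgeR neither decrease passed against control with the siRNAs pooled (adjusted p = 0.211 for KMT2D and 0.437 for KMT2C). Without a filter on low counts the KMT2D decrease passed (0.0062). Of the single siRNAs, KMT2C siRNA1 alone lowered its target with a call (log2 fold change of -0.99, SE 0.208, adjusted p = 0.0148). Between the pooled targets both genes differed. KMT2C was lower with KMT2C siRNA (-1.01, adjusted p = 0.00505) and KMT2D was higher (1.52, adjusted p = 0.00195). The other gene of the pair also moved: KMT2C rose with KMT2D siRNA2 (log2 fold change of 0.72, SE 0.206, adjusted p = 0.0291, 273.7% of control in PANC1), and KMT2D rose with KMT2C siRNA2 (1.02, SE 0.283, adjusted p = 0.0401). The library labelled PANC1 KMT2C siRNA2 held KMT2C at 115.7% and KMT2D at 371.7% of control, so it went against its label. With KMT2C siRNA2, KMT2D lay at 128.3% of control in COLO357 and 158.1% in SUIT2. The call of the KMT2D rise includes that PANC1 library and is not given without it. Read pairs in no annotated feature exceeded 20% in 3 libraries: 2 of SUIT2, with KMT2C siRNA2 (25.0%) and siRNA3 (22.2%), and 1 of COLO357, with KMT2C siRNA3 (30.4%). Calls for KMT2C siRNA2, among the KMT2C siRNAs and for KMT2C siRNAs pooled are given with and without these 4 libraries. This holds for named genes other than KMT2C and KMT2D. All 6 epithelial markers had a median above 1 CPM in each line, while the summed leukocyte markers reached at most 9.78 CPM. The 6 endothelial markers summed to at most 28.3 CPM, in COLO357, where CDH5 had a median of 9.64 CPM. CDH5 stayed at no more than 0.111 CPM in PANC1 and 0.0455 in SUIT2. COL1A1 alone of 8 fibroblast markers passed a median of 1 CPM. The labels do not tie the libraries to separate cultures, so a p-value here sets a difference against the variation among these libraries, part of which may be technical.

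With both siRNAs of KMT2D pooled, none of the 38 genes passed the test against control, where 1.2% of all genes tested did. With the 3 siRNAs of KMT2C pooled, again none passed, against a background of 0.281%. Testing was by the quasi-likelihood F test of edgeR on counts, with Benjamini-Hochberg adjustment over all 21028 genes and a call at an adjusted p under 0.05. At an unadjusted p under 0.05 it gave 1 of the 38 genes for KMT2D and 3 for KMT2C, and neither DESeq2 nor limma-voom called any. The median log2 fold change of the 38 genes was -0.09 for KMT2D, beside 0.02 over all genes, and 0.01 for KMT2C, beside 0.0035. Single siRNAs, each with 1 library in each of the 3 lines, were then compared with control. KMT2D siRNA1 lowered 2 of the 38 genes, where 4.02% of all genes were called and 2.18% were lower. KMT2D siRNA2 lowered 1 (8.92% of all genes called, 4.94% lower) and KMT2C siRNA1 lowered 1 (1.2%, 0.504% lower). KMT2C siRNA2 raised 1 (5.81%, 2.67% higher) and KMT2C siRNA3 changed none (0.623%). For KMT2C siRNA3, 11 of the 38 had an unadjusted p under 0.05 and DESeq2 called none. The COLO357 and SUIT2 libraries of that siRNA had 30.4% and 22.2% of read pairs in no annotated feature. That count of 11 is not given without them. The share of all genes at an unadjusted p under 0.05 is not given for any comparison, so counts at that threshold have no background beside them. These comparisons share the 3 control libraries. At 0 to 2 genes of 38, these counts are too small to set apart from the background of their comparisons.

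HIF1A (ENSG00000100644), the alpha subunit that drives most glycolytic HIF targets, fell with KMT2D siRNA1 in all 3 lines. HIF1A lay at 222 CPM with control siRNA in PANC1, at 90.99 and 224 with KMT2D siRNA1 and siRNA2, and at 269.7, 208 and 235 with KMT2C siRNA1, siRNA2 and siRNA3. COLO357 HIF1A values, in the same order, were 597, then 371 and 731, then 621, 505 and 454 CPM. SUIT2 HIF1A values, in the same order, were 191, then 90.1 and 174, then 286, 241 and 244 CPM. The KMT2D siRNA1 library was the lowest of its line in PANC1, COLO357 and SUIT2 alike, while the KMT2D siRNA2 library stayed near or above control. Against control, KMT2D siRNA1 gave a log2 fold change of -0.996, SE 0.194, adjusted p = 0.00304 by edgeR, a level about 0.50 times that of control. Against KMT2D siRNA2 the log2 fold change was -1.07, SE 0.194, adjusted p = 0.000702, and KMT2D siRNA2 against control gave 0.07 (SE 0.191, adjusted p = 0.882). Both calls of HIF1A held in every alternative fit and with any single library left out, where the highest adjusted p by edgeR was 0.0378 against control and 0.00879 against KMT2D siRNA2. In SUIT2, KMT2D itself was lower with siRNA1 (34.8% of control) than with siRNA2 (65.8%), whereas in PANC1 and COLO357 the values of the 2 siRNAs lay close together (79.9% and 84.7%, 43.5% and 45.5%). The part of this difference in depletion in the HIF1A result was not tested. In such bulk RNA, fewer cells with the transcript and less transcript per cell cannot be told apart.

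EPAS1 (ENSG00000116016), the second alpha subunit, fell with KMT2C siRNA1, and the other 4 siRNAs gave no call. EPAS1 lay at 59.7 CPM with control siRNA in PANC1, at 56.3 and 76.8 with KMT2D siRNA1 and siRNA2, and at 29.7, 71.98 and 77.7 with KMT2C siRNA1, siRNA2 and siRNA3. COLO357 EPAS1 values, in the same order, were 158, then 142 and 200.3, then 118, 224 and 158 CPM. SUIT2 EPAS1 values, in the same order, were 175, then 74.5 and 118, then 49.1, 91.4 and 115 CPM. KMT2C siRNA1 gave the lowest value of the 6 in each line, at less than the control in all of them. The log2 fold change was -1.12, SE 0.219, adjusted p = 0.00994 by edgeR, a level about 0.459 times that of control. The 3 KMT2C siRNAs differed among themselves in EPAS1 (adjusted p = 0.00884, edgeR F test with 2 degrees of freedom), one of 2 such genes of the 38 (5.26%, beside 4.51% of all genes). KMT2C siRNA2 and siRNA3 gave log2 fold changes of -0.10 and -0.13 against control, with SEs of 0.216 and 0.215. The call against control was lost without PANC1 KMT2C siRNA1 (adjusted p = 0.0803), SUIT2 KMT2C siRNA1 (0.103) or the SUIT2 control (0.0906, log2 fold change -0.72). The call among the 3 siRNAs was lost without PANC1 KMT2C siRNA1 (0.0885) or SUIT2 KMT2C siRNA1 (0.0837). It held without the library that went against its label (0.0271) and without the 3 libraries above 20% in no annotated feature (0.0183). In SUIT2 the control library was the highest of its line in EPAS1. CDH5, an endothelial marker, rose in the same comparison of KMT2C siRNA1 with control (log2 fold change of 2.07, SE 0.508, adjusted p = 0.0406, edgeR). CDH5 was nearly absent in PANC1 and SUIT2, so that value rests on the COLO357 libraries. Its part in the EPAS1 result was not tested.

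ARNT (ENSG00000143437), the shared partner of both alpha subunits, rose with KMT2C siRNA2. ARNT lay at 58.9 CPM with control siRNA in PANC1, at 71.7 and 85.6 with KMT2D siRNA1 and siRNA2, and at 50.7, 91.2 and 77.8 with KMT2C siRNA1, siRNA2 and siRNA3. COLO357 ARNT values, in the same order, were 49.6, then 44.8 and 49.4, then 48.9, 77.5 and 48.9 CPM. SUIT2 ARNT values, in the same order, were 50.1, then 47.02 and 51.3, then 55.3, 94.5 and 79.9 CPM. The KMT2C siRNA2 library was the highest of its line in all 3 lines, though in PANC1 by little over KMT2D siRNA2. KMT2C siRNA2 against control gave a log2 fold change of 0.73, SE 0.176, adjusted p = 0.0125 by edgeR, and the 3 KMT2C siRNAs differed in ARNT with an adjusted p of 0.0315. Without the PANC1 library that went against its label, the log2 fold change was 0.82 (adjusted p = 0.0211). Without the 3 libraries above 20% in no annotated feature it was 0.63 and no longer passed (adjusted p = 0.111). The call was also lost without the PANC1 control (0.0837), the SUIT2 control (0.0672) or SUIT2 KMT2C siRNA2 (0.0917). The call among the 3 KMT2C siRNAs held without the library that went against its label (0.0467). It was lost without the 3 libraries above 20% (0.313), PANC1 KMT2C siRNA1 (0.185), SUIT2 KMT2C siRNA2 (0.168), COLO357 KMT2C siRNA2 (0.0967), SUIT2 KMT2C siRNA1 (0.0732) or PANC1 KMT2C siRNA3 (0.052). The 2 prolyl hydroxylase genes passed no siRNA test. EGLN1, the main oxygen sensor, kept within 87.6 to 112 CPM in SUIT2, 60.1 to 73.6 in PANC1 and 72.7 to 101 in COLO357. EGLN3, a HIF-induced hydroxylase, was highest in the control library in SUIT2, and in COLO357 the control was exceeded by KMT2C siRNA2 alone. EGLN3 went from 0.461 CPM with control siRNA to 0.681 and 0.255 with KMT2D siRNA1 and siRNA2 in PANC1, from 37.05 to 28.2 and 32.6 in COLO357, and from 36.6 to 19.8 and 17.5 in SUIT2. With KMT2C siRNA1, siRNA2 and siRNA3 the EGLN3 values were 20.5, 39.8 and 13.1 in COLO357 and 14.8, 19.9 and 28.2 in SUIT2. The EGLN3 log2 fold change was -0.53 for KMT2D (SE 0.343, adjusted p = 0.568) and -0.80 for KMT2C (SE 0.314, adjusted p = 0.431) by edgeR, and neither passed.

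**Figure D1:**
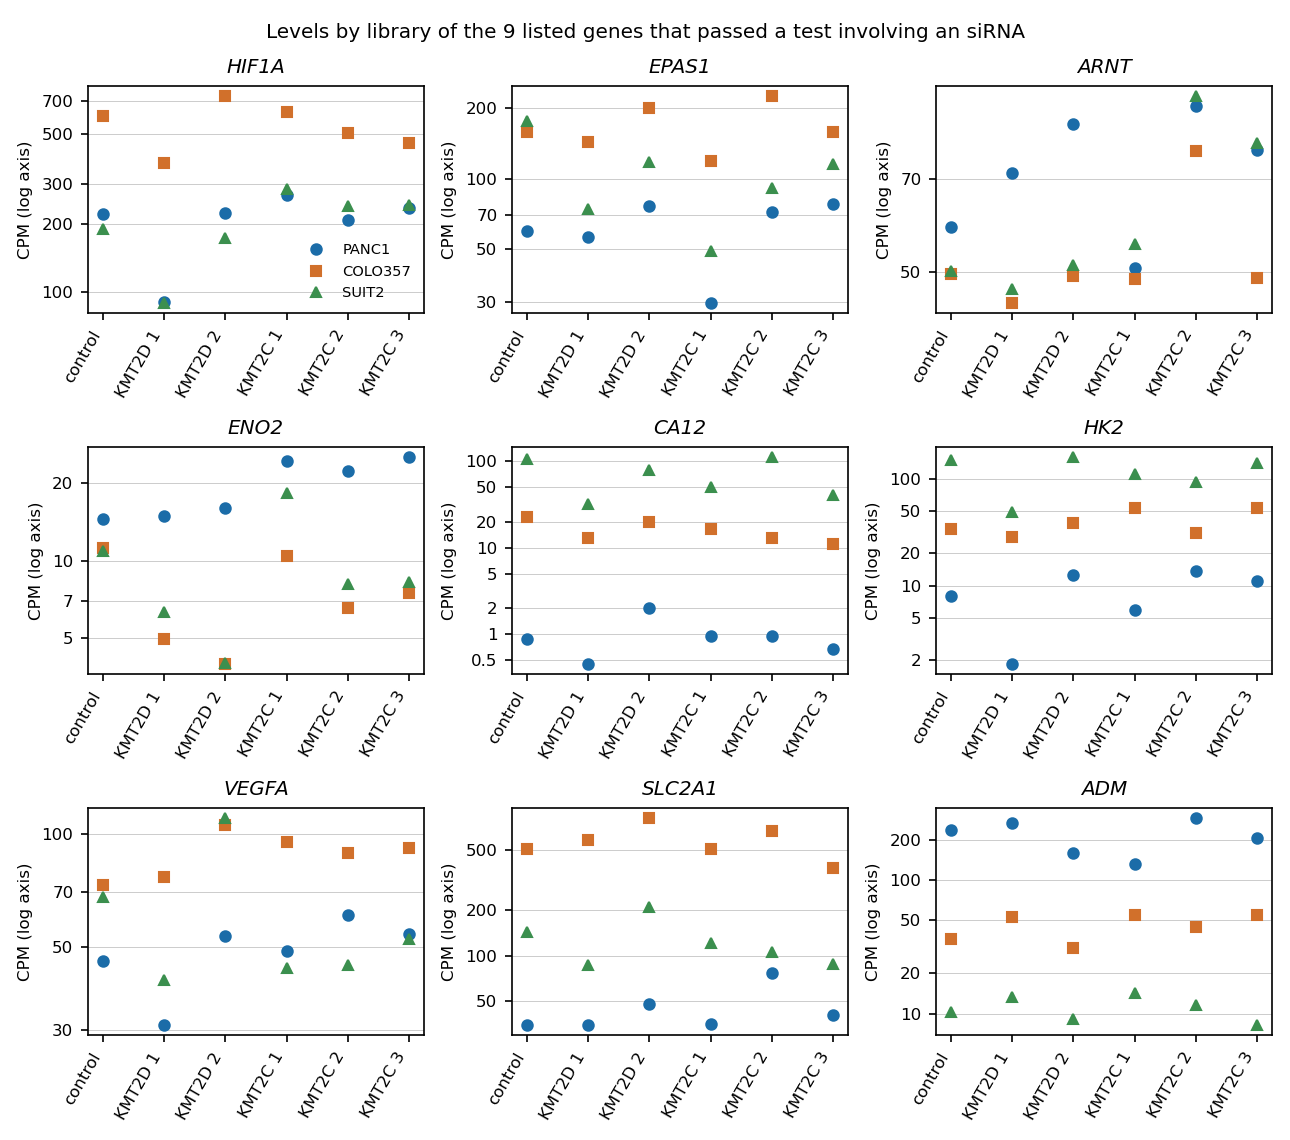
CPM (log axis) of the 9 genes that passed a test involving an siRNA, by siRNA along the horizontal axis, with 1 point per library and a colour per cell line. HIF1A is lowest in the KMT2D siRNA1 library of each line, EPAS1 in the KMT2C siRNA1 library, and ARNT is highest in the KMT2C siRNA2 library.

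The 2 KMT2D siRNAs were therefore compared with each other, with no control library on either side. The fit still covered all 18 libraries, so the controls entered its filter, scaling and estimate of variation. KMT2D siRNA1 was lower than siRNA2 in HIF1A, VEGFA, CA12, HK2 and SLC2A1 and higher in ADM, 6 of the 38 genes (15.8%), in a comparison that called 11.3% of all genes, 5.63% lower and 5.72% higher. The share is close to the background. In the same comparison KRT7, 1 of the 6 epithelial markers (log2 fold change of -0.73, adjusted p = 0.0489, edgeR) and the duct marker SOX9 (-1.53, adjusted p = 0.0285) were lower with siRNA1, and KMT2C was lower too (-0.65, adjusted p = 0.0428). KRT7 was also lower with siRNA1 than with control (-0.96, adjusted p = 0.0221). Their part in the results was not tested. The median log2 fold change of the 38 genes was -0.19, beside -0.01 over all genes.

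HK2 (ENSG00000159399), the hexokinase that is inducible and bound to mitochondria, was lower with siRNA1 than with siRNA2 in each line. HK2 lay at 7.94 CPM with control siRNA in PANC1, at 1.86 and 12.5 with KMT2D siRNA1 and siRNA2, and at 5.88, 13.6 and 11.1 with KMT2C siRNA1, siRNA2 and siRNA3. COLO357 HK2 values, in the same order, were 33.9, then 28.3 and 38.7, then 53.02, 30.8 and 52.9 CPM. SUIT2 HK2 values, in the same order, were 150.3, then 48.99 and 158, then 109.5, 93.04 and 141 CPM. The siRNA1 library held the lowest HK2 value of each line. The log2 fold change was -1.45, SE 0.381, adjusted p = 0.0251 by edgeR. Against control, KMT2D siRNA1 gave -1.15 (SE 0.378, adjusted p = 0.117), which did not pass. HK1, the housekeeping hexokinase, gave -0.24 between the 2 siRNAs (SE 0.212, adjusted p = 0.551).

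SLC2A1 (ENSG00000117394) encodes the glucose transporter GLUT1. SLC2A1 lay at 34.95 CPM with control siRNA in PANC1, at 35.05 and 47.6 with KMT2D siRNA1 and siRNA2, and at 35.6, 77.2 and 40.3 with KMT2C siRNA1, siRNA2 and siRNA3. COLO357 SLC2A1 values, in the same order, were 504, then 578 and 809.5, then 510.0, 668 and 379 CPM. SUIT2 SLC2A1 values, in the same order, were 144, then 87.4 and 209.8, then 122, 106 and 88.5 CPM. siRNA1 lay below siRNA2 in every line, but below control in SUIT2 alone. The difference had a log2 fold change of -0.74, SE 0.234, adjusted p = 0.0464 by edgeR. Against control the log2 fold change was -0.17 for siRNA1 and 0.56 for siRNA2, and neither passed.

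VEGFA (ENSG00000112715), the main growth factor for blood vessels, was also lower with siRNA1 than with siRNA2 in each line. VEGFA lay at 45.8 CPM with control siRNA in PANC1, at 30.9 and 53.4 with KMT2D siRNA1 and siRNA2, and at 48.7, 60.8 and 53.97 with KMT2C siRNA1, siRNA2 and siRNA3. COLO357 VEGFA values, in the same order, were 72.97, then 76.8 and 105, then 95.2, 88.9 and 91.4 CPM. SUIT2 VEGFA values, in the same order, were 67.8, then 40.6 and 110.0, then 43.7, 44.6 and 52.5 CPM. KMT2D siRNA2 gave the highest VEGFA value in COLO357 and SUIT2, and siRNA1 the lowest in PANC1 and SUIT2. The log2 fold change was -0.93, SE 0.22, adjusted p = 0.00729 by edgeR. Against control the values were -0.41 for siRNA1 and 0.51 for siRNA2, so that the pooled KMT2D value was 0.12 (SE 0.261).

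CA12 (ENSG00000074410), a membrane carbonic anhydrase that handles acid at the cell surface, was low in PANC1 throughout. CA12 stood at 0.889 CPM with control siRNA in PANC1, at 0.454 and 2.0 with KMT2D siRNA1 and siRNA2, and at 0.946, 0.943 and 0.675 with KMT2C siRNA1, siRNA2 and siRNA3. COLO357 CA12 values, in the same order, were 22.9, then 12.9 and 19.7, then 16.4, 13.02 and 11.04 CPM. SUIT2 CA12 values, in the same order, were 108, then 31.97 and 78.8, then 50.4, 112 and 40.6 CPM. KMT2D siRNA1 lay under both control and siRNA2 in all 3 lines. Against control the log2 fold change was -1.19, SE 0.291, adjusted p = 0.0228, and against siRNA2 -1.17, SE 0.297, adjusted p = 0.0127, both by edgeR. CA12 also lay under control with KMT2C siRNA3 in each line (-1.09, adjusted p = 0.113), which did not pass.

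ADM (ENSG00000148926), which encodes the vasodilator peptide adrenomedullin, moved the other way. ADM lay at 239.7 CPM with control siRNA in PANC1, at 271 and 159.5 with KMT2D siRNA1 and siRNA2, and at 132, 292 and 206 with KMT2C siRNA1, siRNA2 and siRNA3. COLO357 ADM values, in the same order, were 36.4, then 53.5 and 30.9, then 54.4, 44.95 and 55.2 CPM. SUIT2 ADM values, in the same order, were 10.2, then 13.4 and 9.07, then 14.3, 11.6 and 8.23 CPM. siRNA1 exceeded control and siRNA2 fell short of it in every line, and the log2 fold change was 0.71, SE 0.228, adjusted p = 0.0478 by edgeR. Neither siRNA passed against control (0.36 and -0.35).

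These calls differ in how far they rest on single libraries. HK2 lost the call without PANC1 KMT2D siRNA1 (adjusted p = 0.0606), PANC1 KMT2D siRNA2 (0.0883), SUIT2 KMT2D siRNA1 (0.121), SUIT2 KMT2D siRNA2 (0.108) or the 3 libraries above 20% in no annotated feature (0.0565). VEGFA lost it without SUIT2 KMT2D siRNA1 (0.0508) or siRNA2 (0.0874, log2 fold change -0.58). CA12 lost the call against siRNA2 without SUIT2 KMT2D siRNA1 (0.136). Its call against control was lost without PANC1 KMT2D siRNA1 (0.0873), SUIT2 KMT2D siRNA1 (0.25), the COLO357 control (0.0789) or the SUIT2 control (0.168). SLC2A1 and ADM lay near the threshold. SLC2A1 lost it in 10 of the 18 fits that leave out a library, with adjusted p-values of 0.0511 to 0.229, the highest without SUIT2 KMT2D siRNA2 (0.229), SUIT2 KMT2D siRNA1 (0.207), PANC1 KMT2D siRNA1 (0.125) and COLO357 KMT2D siRNA2 (0.105). ADM lost it in 9 of 18, with 0.0601 to 0.159, among them each of the 6 KMT2D libraries, and with median-of-ratios size factors (0.0527). The difference in HK2, VEGFA, CA12, SLC2A1 and ADM kept its direction in all of these fits. Without SUIT2 KMT2D siRNA1 a single gene of the 38, HIF1A, passed, and without SUIT2 KMT2D siRNA2 there were 3.

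**Figure D2:**
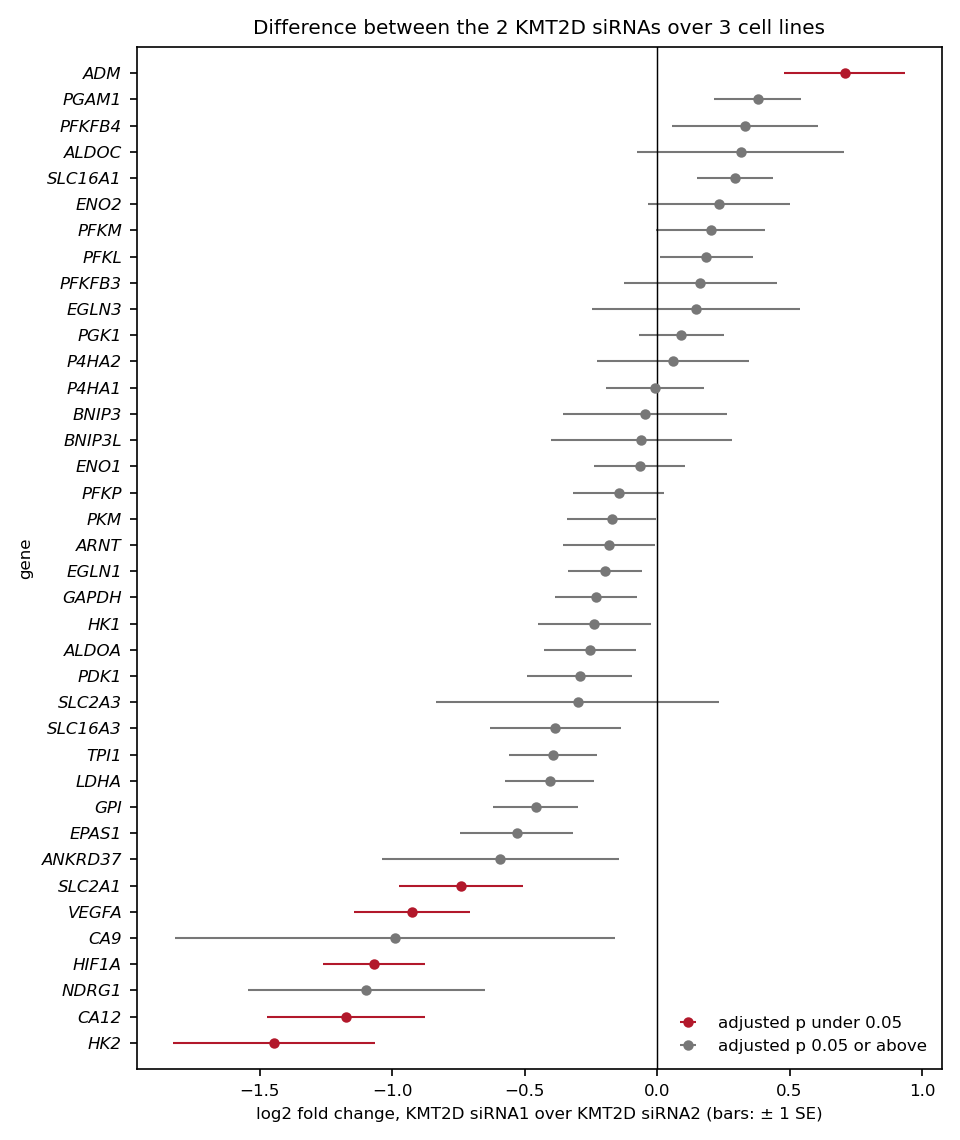
Log2 fold change of KMT2D siRNA1 over KMT2D siRNA2 for the 38 genes, fitted over the 3 lines, with bars of 1 SE; genes that passed the test are marked. HK2, CA12, HIF1A, VEGFA and SLC2A1 lie to the left of 0 and ADM to the right, and 26 of the 38 genes are negative.

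Promoter sequences of these genes were read from RefSeq (GRCh38.p14), except for VEGFA, which had no window. They were read because 5 of the 6 genes are listed as HIF targets and the motif of HIF can be searched for. Windows of 250 bases upstream of each annotated start were searched on both strands for the 2 forms of the core. These are the motif ACGTG and, with another first letter, the motif GCGTG. Where ACGTG follows a C it matches on both strands and counts once for each. ACGTG was found in 22 of 60 windows of the listed genes (36.7%), from 19 of 33 genes with a window, beside 18.5% of all 35116 windows. GCGTG was found in 19 of 60 (31.7%), beside 32.2% of all windows. Printed below are HK2, CA12, SLC2A1 and ADM, which differed between the siRNAs, and LDHA, whose window holds the most ACGTG of any single window of the listed genes and which passed no siRNA test. Capitals mark each match, bases run 5′ to 3′ on the gene's strand, and where a gene has several windows the one with most matches is shown. The windows are chr2:74834920-74835169 on the plus strand (HK2), chr15:63381847-63382096 on the minus strand (CA12), chr1:42958869-42959118 on the minus strand (SLC2A1), chr11:10304823-10305072 on the plus strand (ADM) and chr11:18394313-18394562 on the plus strand (LDHA).
HK2: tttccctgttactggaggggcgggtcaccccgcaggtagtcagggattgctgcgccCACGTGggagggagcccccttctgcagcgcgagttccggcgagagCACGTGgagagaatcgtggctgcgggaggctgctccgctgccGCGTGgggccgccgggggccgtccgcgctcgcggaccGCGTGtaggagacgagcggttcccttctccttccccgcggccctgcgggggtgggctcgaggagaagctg
LDHA: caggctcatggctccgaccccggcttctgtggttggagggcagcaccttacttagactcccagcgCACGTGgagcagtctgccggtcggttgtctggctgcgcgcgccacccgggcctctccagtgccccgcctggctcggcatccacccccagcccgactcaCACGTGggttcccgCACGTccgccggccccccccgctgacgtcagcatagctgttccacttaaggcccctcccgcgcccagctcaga
CA12: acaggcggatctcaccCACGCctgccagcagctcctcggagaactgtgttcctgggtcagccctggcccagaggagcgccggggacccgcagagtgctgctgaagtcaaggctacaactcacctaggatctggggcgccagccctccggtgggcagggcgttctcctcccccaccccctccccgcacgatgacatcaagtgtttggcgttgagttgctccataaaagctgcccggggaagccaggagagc
ADM: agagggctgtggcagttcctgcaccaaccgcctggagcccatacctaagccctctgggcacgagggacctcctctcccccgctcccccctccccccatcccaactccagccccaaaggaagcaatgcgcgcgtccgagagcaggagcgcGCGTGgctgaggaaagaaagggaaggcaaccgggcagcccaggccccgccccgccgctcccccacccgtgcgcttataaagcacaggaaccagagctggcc
SLC2A1: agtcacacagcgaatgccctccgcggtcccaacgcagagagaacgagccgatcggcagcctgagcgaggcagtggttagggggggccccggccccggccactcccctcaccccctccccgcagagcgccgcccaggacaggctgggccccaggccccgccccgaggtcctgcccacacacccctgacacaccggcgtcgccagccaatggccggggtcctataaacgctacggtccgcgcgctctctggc
HK2 holds 4 ACGTG, counted over both strands, and 2 GCGTG, and LDHA holds 5 ACGTG. CA12 and ADM hold 1 GCGTG each and no ACGTG, and SLC2A1 holds neither in this window. GCGTG was about as frequent in windows of the listed genes (31.7%) as in all windows (32.2%). CA12 and ADM changed in opposite directions between the 2 siRNAs. The part of any match in these differences was not tested. LDHA gave a log2 fold change of -0.41 between the 2 siRNAs (SE 0.17, adjusted p = 0.133, edgeR). A match is a stretch of letters, not a bound site, and its absence says nothing about sites elsewhere.

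ENO2 (ENSG00000111674), the enolase of neurons and neuroendocrine cells, was the member of the payoff phase that passed a test. ENO2 lay at 14.5 CPM with control siRNA in PANC1, at 14.8 and 15.96 with KMT2D siRNA1 and siRNA2, and at 24.3, 22.2 and 25.1 with KMT2C siRNA1, siRNA2 and siRNA3. COLO357 ENO2 values, in the same order, were 11.2, then 4.99 and 3.98, then 10.4, 6.55 and 7.50 CPM. SUIT2 ENO2 values, in the same order, were 10.9, then 6.30 and 4.01, then 18.3, 8.13 and 8.29 CPM. In PANC1 the KMT2D values lay at control and all 3 KMT2C values above it. In COLO357 and SUIT2 both KMT2D values lay below control and below all 3 KMT2C values. KMT2C siRNA exceeded KMT2D siRNA (log2 fold change 0.87, SE 0.207, adjusted p = 0.0195, edgeR). ENO2 was the 1 gene of 38 called between the 2 targets, where 5.17% of all genes were called and 2.45% were higher with KMT2C siRNA. With siRNA as a random block in limma-voom the ENO2 log2 fold change was 0.81 and did not pass (adjusted p = 0.0854). Without the 3 libraries above 20% in no annotated feature it was 1.02 (adjusted p = 0.0275), and without the library that went against its label 0.87 (0.0267). CDH5 was higher in this comparison as well (log2 fold change of 1.94, SE 0.403, adjusted p = 0.00977, edgeR). That value too rests on COLO357, since CDH5 was nearly absent in the other lines. Its part in the ENO2 result was not tested. Leaving out any single library kept the ENO2 call (adjusted p 0.0151 to 0.0486). KMT2D siRNA2 against control gave -0.92 (SE 0.269, adjusted p = 0.0313) and siRNA1 -0.69 (SE 0.265, adjusted p = 0.166). The siRNA2 call was lost without the COLO357 control (0.203, log2 fold change -0.62), COLO357 KMT2D siRNA2 (0.0978), the SUIT2 control (0.111), SUIT2 KMT2D siRNA2 (0.173) or the 3 libraries above 20% in no annotated feature (0.0595). Pooled, the KMT2D value was -0.80 (SE 0.266, adjusted p = 0.171). Per kb of exon, ENO2 made up at most 1.54% of the summed ENO1 and ENO2 level in any library. ENO1, the ubiquitous enolase, gave -0.33 between the targets (SE 0.119, adjusted p = 0.106).

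The other genes of glycolysis passed no test against control. None of the 13 genes of glucose uptake and the preparatory phase was called for any siRNA against control. Of these, triose phosphate isomerase TPI1 had the smallest p for KMT2D. TPI1 went from 195 CPM with control siRNA to 135 and 163 with KMT2D siRNA1 and siRNA2 in PANC1, from 304 to 257 and 295 in COLO357, and from 209.8 to 120.0 and 203 in SUIT2. The log2 fold change was -0.30 (SE 0.171, adjusted p = 0.504, edgeR). Pseudogenes of TPI1 held as many reads as TPI1 itself (100.6%), so that its count is uncertain. For KMT2C the smallest p was that of SLC2A3, the neuronal glucose transporter GLUT3, at 1.09 (SE 0.479, adjusted p = 0.501) and with no more than 27 counts in any library. PFKFB3, which makes the activator of phosphofructokinase, gave 0.58 between KMT2C and KMT2D siRNA (SE 0.178, adjusted p = 0.0603) and was named after its values were seen. In the payoff phase PGK1, an enzyme that makes ATP, had the smallest p for KMT2C. PGK1 went from 627 CPM with control siRNA to 525, 493 and 518 with KMT2C siRNA1, siRNA2 and siRNA3 in PANC1, from 596 to 551, 661 and 411 in COLO357, and from 436 to 389.6, 305 and 346 in SUIT2. PGK1 lay below control in 8 of the 9 libraries, with -0.25 (SE 0.138, adjusted p = 0.598, edgeR).

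Lactate export and acid handling likewise gave no call for a pooled target. SLC16A1, the lactate transporter MCT1, had the smallest p of its role for both targets. SLC16A1 went from 208 CPM with control siRNA to 173 and 139.8 with KMT2D siRNA1 and siRNA2 in PANC1, from 148 to 179.9 and 141 in COLO357, and from 244 to 198 and 169.9 in SUIT2. With the 3 KMT2C siRNAs it lay at 136, 160.4 and 149.5 CPM in PANC1, at 144, 128 and 134 in COLO357 and at 182, 165 and 173 in SUIT2. The control value was the highest of the 6 in PANC1 and SUIT2, and in COLO357 it was exceeded by KMT2D siRNA1. For the pooled targets the log2 fold change was -0.24 for KMT2D (adjusted p = 0.495) and -0.38 for KMT2C (adjusted p = 0.339) by edgeR. CA9, the carbonic anhydrase often used to mark hypoxic cells, was nearly absent: it had at most 2 counts in any PANC1 library, at most 1 in SUIT2 and 2 to 29 in COLO357. In COLO357 it lay at 1.37 CPM with control siRNA, at 0.301 and 0.7 with the KMT2D siRNAs and at 0.952, 1.21 and 0.12 with the KMT2C siRNAs. CA12 gave -0.58 for KMT2C with all siRNAs pooled (SE 0.344, adjusted p = 0.646).

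Among the remaining HIF targets, BNIP3L, a receptor that marks mitochondria for removal, had the smallest p of the mitophagy pair for KMT2D. BNIP3L went from 109.5 CPM with control siRNA to 88.7 and 81.2 with KMT2D siRNA1 and siRNA2 in PANC1, from 33.2 to 19.01 and 27.7 in COLO357, and from 74.2 to 61.4 and 50.2 in SUIT2. Its log2 fold change was -0.43 (SE 0.272, adjusted p = 0.556, edgeR). BNIP3, its close relative, gave -0.24 for KMT2D (SE 0.27) and 0.05 for KMT2C (SE 0.261), and neither passed. NDRG1, a stress-response gene, gave 0.39 for KMT2C (SE 0.409, adjusted p = 0.831), and ANKRD37, with at most 27 counts in a library, gave 0.32 for KMT2D (SE 0.387, adjusted p = 0.796). P4HA1, a prolyl hydroxylase that acts on collagen, gave 0.12 for KMT2D (SE 0.208) and -0.29 for KMT2C (SE 0.192). ADM gave 0.14 for KMT2C (SE 0.23).

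Library by library, the number of the 38 genes below the control of the line ran from 14 to 32. It was highest in COLO357 with KMT2C siRNA3, where 32 lay below (84.2%, beside 50.2% of all genes) with a median log2 change of -0.47. That library had 30.4% of its read pairs in no annotated feature, and the part of this in the result was not tested. COLO357 with KMT2D siRNA1 and COLO357 with KMT2C siRNA1 each had 29 genes below control (76.3%, beside 48.6% and 50.1% of all genes), with medians of -0.25 and -0.18. SUIT2 with KMT2D siRNA1 had 26 below (68.4%, beside 46.7% of all genes), with a median of -0.29. The other 4 SUIT2 libraries had 15 to 23 below, the lowest with KMT2C siRNA1. COLO357 with KMT2C siRNA2 had 24 genes above control and COLO357 with KMT2D siRNA2 had 21. In PANC1 the numbers below control ran from 18 to 21 in the 5 siRNA libraries, near an even split. These 15 comparisons share 3 control libraries, 1 for each line, and a single library has no replicate of its own. No gene of the list differed between the lines in its response to KMT2D or to KMT2C siRNA by an edgeR F test of that difference, which called 0% of all genes for either target. At an unadjusted p under 0.05 that test gave none of the 38 for KMT2D and 1 for KMT2C, and DESeq2 called none. The share of all genes at that unadjusted threshold is not given.

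**Figure D3:**
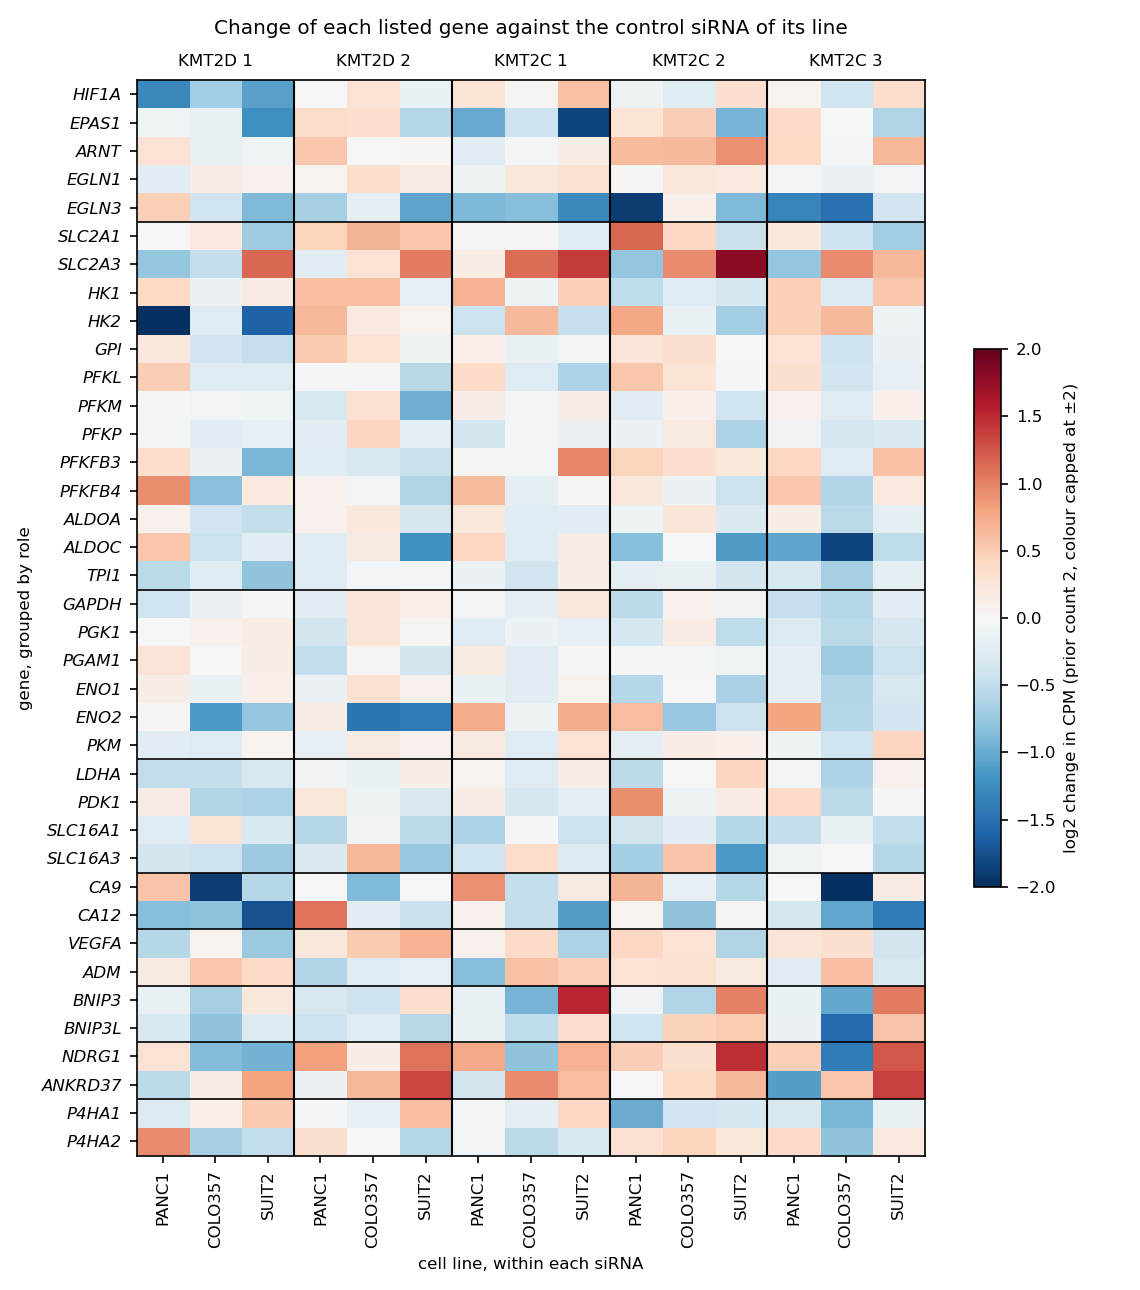
Log2 change in CPM of each of the 38 genes (rows, grouped by role) against the control siRNA of the same line, for 15 siRNA libraries (columns, ordered by siRNA and line), with colours capped at 2 in either direction. The column of COLO357 KMT2C siRNA3 is below control in 32 of 38 rows, and the HIF1A row is below control in all 3 KMT2D siRNA1 columns.

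Other genes of these pathways were taken from lists that hold none of the 38. These lists were also chosen with earlier results of these data known, so their shares are no independent test. Of 36 further HIF target genes tested, 3 were called for KMT2D (1 higher, 2 lower) and 1 for KMT2C (higher). Of all genes, 1.2% were called for KMT2D (0.699% higher, 0.504% lower) and 0.281% for KMT2C (0.266% higher). The median log2 fold changes of the 36 genes were 0.08 and 0.07. Of the same 36 genes, 7 were called for KMT2D siRNA2 (19.4%, beside 8.92% of all genes) and 5 between the targets (13.9%, beside 5.17%). Between the KMT2D siRNAs 8 were called (22.2%, beside 11.3%). Of these 8, 7 were lower with siRNA1, where 5.63% of all genes were called lower. WSB1, a ubiquitin ligase subunit, rose with both targets. WSB1 lay at 32.2 CPM with control siRNA in PANC1, at 116 and 144 with KMT2D siRNA1 and siRNA2, and at 99.9, 115 and 96.1 with KMT2C siRNA1, siRNA2 and siRNA3. COLO357 WSB1 values, in the same order, were 40.5, then 88.3 and 121, then 72.7, 74.3 and 65.9 CPM. SUIT2 WSB1 values, in the same order, were 38.8, then 114 and 196, then 90.9, 129.6 and 95.3 CPM. Every siRNA library lay above the WSB1 control of its line. The log2 fold change was 1.77, SE 0.207, adjusted p = 0.000129 for KMT2D and 1.29, SE 0.195, adjusted p = 0.00195 for KMT2C, both by edgeR against the same 3 controls. The KMT2C value of WSB1 was 1.29 without the 3 libraries above 20% in no annotated feature (adjusted p = 0.0108) and 1.24 without the library that went against its label (0.00363). That call was lost without the PANC1 control (0.0815) or the SUIT2 control (0.0955). GBE1, which branches glycogen, fell with KMT2D siRNA. GBE1 went from 114 CPM with control siRNA to 59.7 and 80.7 with KMT2D siRNA1 and siRNA2 in PANC1, from 138 to 78.4 and 100.0 in COLO357, and from 31.7 to 19.3 and 16.1 in SUIT2. Its log2 fold change was -0.72, SE 0.162, adjusted p = 0.0282 (edgeR), and it did not pass with siRNA as a random block in limma-voom (0.147) or without the PANC1 control (0.157), the COLO357 control (0.12), the SUIT2 control (0.145), PANC1 KMT2D siRNA1 (0.0579) or SUIT2 KMT2D siRNA2 (0.0521). ANGPTL4, a secreted inhibitor of lipoprotein lipase, fell as well. ANGPTL4 went from 34.3 CPM with control siRNA to 18.1 and 19.7 with KMT2D siRNA1 and siRNA2 in PANC1, from 1.84 to 1.12 and 0.919 in COLO357, and from 18.2 to 3.10 and 5.29 in SUIT2. Its log2 fold change was -1.35, SE 0.32, adjusted p = 0.0376 (edgeR). The call was lost in 10 of the 18 fits that leave out a library (highest 0.437, without the SUIT2 control) and with siRNA as a random block (0.217).

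The 13 other regulators of HIF, among them VHL partners and coactivators, gave no call for a pooled target. With KMT2D siRNA2, 3 of 13 rose (23.1%), CITED2, CREBBP and EP300, where 8.92% of all genes were called and 3.98% were higher. KMT2C siRNA2 raised CREBBP and EP300 and lowered HIF1AN (23.1%), where 5.81% of all genes were called, 2.67% higher and 3.14% lower. HIF1AN encodes the asparagine hydroxylase that blocks HIF coactivators. HIF1AN, CITED2, CREBBP and EP300 were named after their values were seen. HIF1AN lay at 257 CPM with control siRNA in PANC1, at 116 and 308 with KMT2D siRNA1 and siRNA2, and at 273, 51.2 and 282 with KMT2C siRNA1, siRNA2 and siRNA3. COLO357 HIF1AN values, in the same order, were 91.1, then 59.05 and 94.4, then 82.5, 41.6 and 93.3 CPM. SUIT2 HIF1AN values, in the same order, were 196, then 121 and 106, then 170.4, 75.7 and 217 CPM. The KMT2C siRNA2 library was the lowest in HIF1AN in each line, with a log2 fold change of -1.54, SE 0.269, adjusted p = 0.00171 by edgeR. Without the library that went against its label it was -1.23 (adjusted p = 0.00346), and without the 3 libraries above 20% it was -1.74 (0.0116). CREBBP and EP300 encode the 2 histone acetyltransferases that HIF recruits. CREBBP gave 0.97 with KMT2D siRNA2 and 0.93 with KMT2C siRNA2 against control, and EP300 gave 0.83 and 0.94. Without the library that went against its label, the KMT2C siRNA2 values no longer passed for CREBBP (0.77, adjusted p = 0.0719) or EP300 (0.78, 0.0776). Both were also lost without the PANC1 control (0.0744 and 0.0837), and CREBBP without SUIT2 KMT2C siRNA2 (0.0522). They held without the 3 libraries above 20% (0.0351 and 0.0313). The KMT2D siRNA2 call of EP300 was lost without the PANC1 control (0.0976), PANC1 KMT2D siRNA2 (0.0898), the SUIT2 control (0.0558) or SUIT2 KMT2D siRNA2 (0.0945). Outside the HIF lists, 20 other enzymes and regulators of glycolysis, 7 pentose phosphate genes and 17 respiratory chain genes were tested. None was called for a pooled target against control, where 1.2% (KMT2D) and 0.281% (KMT2C) of all genes were. At most 1 of each list was called for any single siRNA against control (5%, 14.3% and 5.88% of the lists). Of all genes, 0.623% to 8.92% were called with single siRNAs. These counts are too small to set apart from that background.

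More of the 38 genes differed between cell lines than with any siRNA, and the same held for all genes tested. PANC1 and COLO357 differed in 33 of the 38 genes (86.8%), 7 higher and 26 lower in PANC1, where 66.8% of all genes were called, 32.1% higher and 34.7% lower. PANC1 and SUIT2 differed in 26 (68.4%), 9 higher and 17 lower in PANC1, with 59.3% of all genes called (29.8% higher, 29.5% lower). COLO357 and SUIT2 differed in 25 (65.8%), 16 higher and 9 lower in COLO357, with 59.7% of all genes called (30.9% higher, 28.8% lower). The shares called in the 2 contrasts with SUIT2 are near the background. The median log2 fold change was -0.83 for PANC1 against COLO357 beside -0.06 over all genes, -0.27 for PANC1 against SUIT2 beside -0.0037, and 0.25 for COLO357 against SUIT2 beside 0.0098. The 38 genes took 0.831% to 0.971% of gene counts in PANC1, 1.02% to 1.21% in SUIT2 and 1.27% to 1.83% in COLO357, with no overlap between lines. This sum is weighted to the most abundant genes, among them PKM, ENO1 and LDHA, and does not describe each gene. ADM, BNIP3 and ENO2 were highest in PANC1. COLO357 was called over both other lines in 13 genes (34.2%, beside 19.9% of all genes), SUIT2 in 6 (15.8%, beside 13.8%) and PANC1 in 5 (13.2%, beside 19.3%). PANC1 was called under both in 17 (44.7%, beside 18.1% of all genes), SUIT2 in 5 (13.2%, beside 12.9%) and COLO357 in 2 (5.26%, beside 16.7%). Each line contrast is fitted over all 6 libraries of a line, siRNA included, whereas the siRNA tests against control rest on 3 control libraries. In the paragraphs that follow, 3 values of a gene are its lowest, median and highest CPM over the 6 libraries of a line, and changes are edgeR log2 fold changes.

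Of the oxygen sensors, EGLN3 separated PANC1 from the other lines. It reached 0.0555, 0.231 and 0.681 CPM in PANC1 (1 to 15 counts), 13.1, 30.4 and 39.8 in COLO357 and 14.8, 19.8 and 36.6 in SUIT2, so that no PANC1 library came near another line. PANC1 lay under COLO357 by -6.57 (SE 0.359, adjusted p = 6.3e-13) and under SUIT2 by -6.23 (SE 0.357), while COLO357 and SUIT2 did not differ beyond their spread (0.34, SE 0.253). EGLN1 was lower in PANC1, at 69.2 CPM by median, than in COLO357 at 89.2 (log2 fold change of -0.36, SE 0.114, adjusted p = 0.00865) and SUIT2 at 99.7 (-0.54, SE 0.114, adjusted p = 0.000301). HIF1A was highest in COLO357, at 371, 551 and 731 CPM, over PANC1 at 90.99, 223 and 269.7 and SUIT2 at 90.1, 216 and 286. COLO357 did not overlap either, and its excess over SUIT2 was 1.48 (SE 0.231, adjusted p = 1.26e-05). PANC1 and SUIT2 did not differ beyond their spread (0.05, SE 0.225). EPAS1 was also highest in COLO357 by median, 158 CPM beside 103 in SUIT2 and 65.8 in PANC1, with overlap between COLO357 and SUIT2. With control siRNA alone, EPAS1 was higher in SUIT2 (174.8 CPM) than in COLO357 (158.3).

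**Figure D4:**
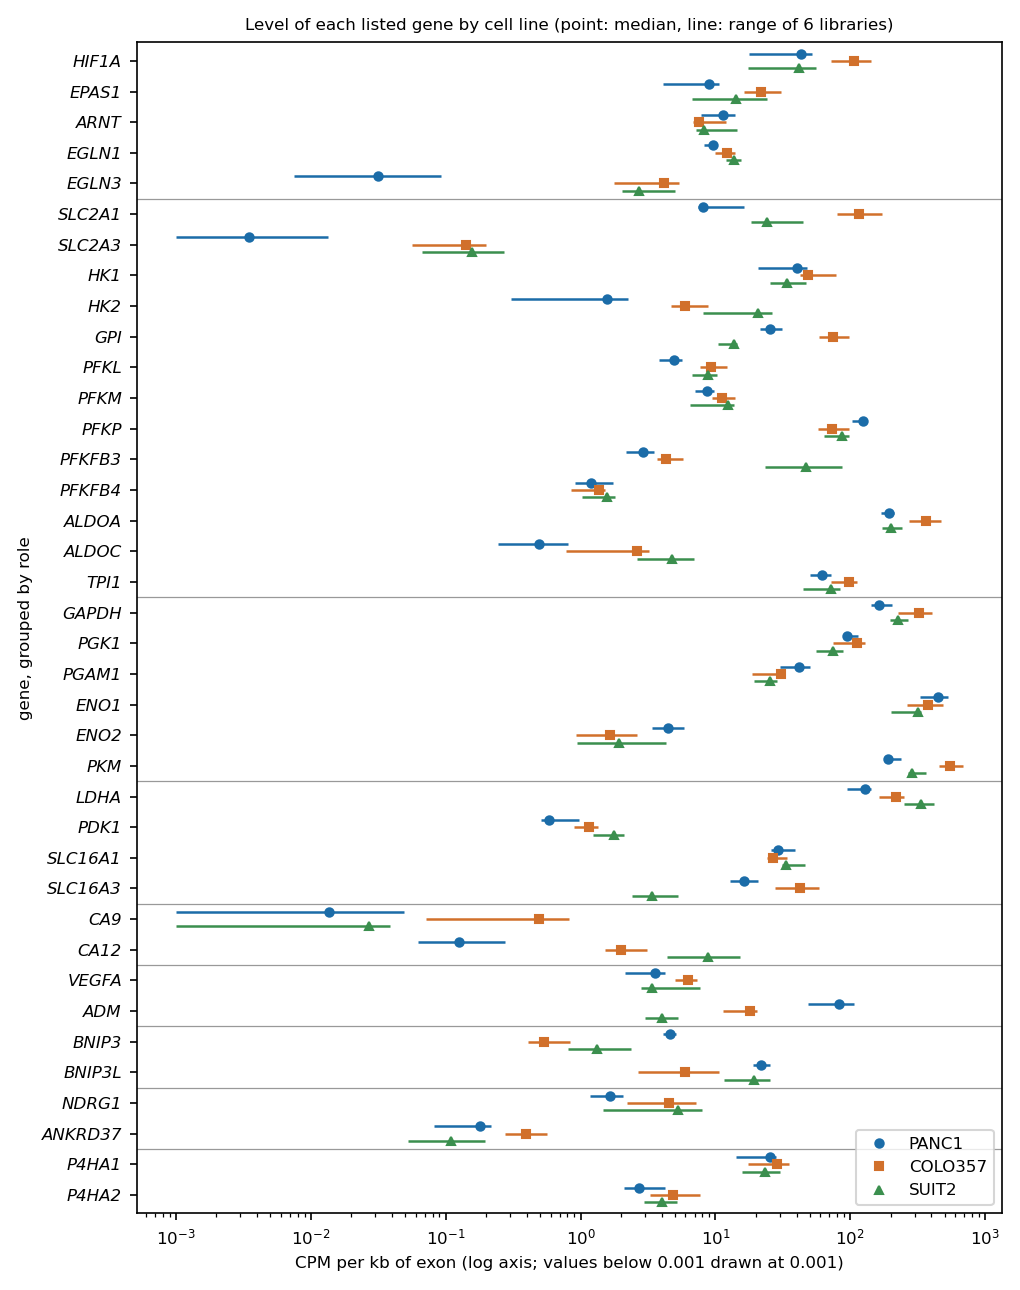
CPM per kb of exon (log axis) of the 38 genes, grouped by role, with a point at the median of each cell line and a bar over the range of its 6 libraries. EGLN3 and CA12 in PANC1 lie far to the left of the other lines, SLC16A3 is lowest in SUIT2, and ADM is highest in PANC1.

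Of the 13 genes of glucose uptake and the preparatory phase, 12 differed between PANC1 and COLO357 (92.3%, beside 66.8% of all genes). Between PANC1 and SUIT2 it was 9 (69.2%, beside 59.3%), and between COLO357 and SUIT2 8 (61.5%, beside 59.7%). The last 2 shares are near the background. SLC2A1 was highest in COLO357, at 379, 544 and 809.5 CPM, then SUIT2 at 87.4, 114 and 209.8 and PANC1 at 34.95, 37.98 and 77.2, and each neighbour in that order differed. COLO357 exceeded PANC1 12.6-fold (log2 fold change of PANC1 over COLO357 -3.65, SE 0.26, adjusted p = 1.32e-10). The order of HK2 was different, with SUIT2 at 48.99, 125.1 and 158 CPM, COLO357 at 28.3, 36.3 and 53.02 and PANC1 at 1.86, 9.51 and 13.6. PANC1 lay under SUIT2 by -3.74 (SE 0.389, adjusted p = 1.82e-07). PFKFB3 was highest in SUIT2, at 142, 289.5 and 527 CPM against 22.6, 26.2 and 35.3 in COLO357 and 13.2, 17.9 and 21.3 in PANC1. SUIT2 overlapped neither, and COLO357 lay under it by -3.44 (SE 0.208, adjusted p = 2.59e-12). GPI, which turns glucose 6-phosphate into fructose 6-phosphate, was highest in COLO357 at 625, 792 and 1038 CPM, then PANC1 at 229, 269 and 331 and SUIT2 at 112, 147 and 155, with no overlap. ALDOC, a minor aldolase, lay under SUIT2 in PANC1 by -3.20 (SE 0.348). PFKP, the platelet-type phosphofructokinase, was the 1 gene of this role higher in PANC1 than in both others, at 501, 603 and 644 CPM. SLC2A3 had at most 2 counts in any PANC1 library and 8 to 27 in the other lines.

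In the payoff phase the differences were smaller. PKM, the pyruvate kinase of growing cells, was highest in COLO357 at 3920.0, 4737 and 5835 CPM, then SUIT2 at 2304, 2462 and 3115 and PANC1 at 1561, 1642 and 2033. No library overlapped another line, and PANC1 lay under COLO357 by -1.52 (SE 0.124, adjusted p = 3.02e-10). GAPDH lay under COLO357 in PANC1 by -0.92 (SE 0.133), with 19.1% as many reads on its pseudogenes as on the gene. ENO2 and PGAM1 were highest in PANC1, ENO2 by 1.44 over COLO357 (SE 0.225) and by 1.14 over SUIT2 (SE 0.222). PGAM1, a mutase near the end of the pathway, exceeded SUIT2 by 0.78 in PANC1 (SE 0.151). PGK1 did not differ between PANC1 and COLO357 beyond the spread (-0.11, SE 0.121).

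At the end of the pathway SUIT2 was highest by median in LDHA and PDK1 and lowest in SLC16A3. LDHA, which reduces pyruvate to lactate, was highest there at 1554, 2084 and 2601 CPM, beside 1021, 1359 and 1562 in COLO357 and 585, 799 and 879.8 in PANC1, and PANC1 lay under SUIT2 by -1.46 (SE 0.142, adjusted p = 6.61e-09). PDK1, which shuts pyruvate out of the citric acid cycle, had the same order at 26.2, 17.2 and 8.74 CPM by median. SLC16A3, the lactate exporter MCT4, was by contrast lowest in SUIT2, at 21.5, 30.3 and 47.6 CPM, beside 116, 147 and 185 in PANC1 and 250.4, 382 and 524 in COLO357. The 3 lines did not overlap in SLC16A3, and COLO357 exceeded SUIT2 by 3.61 (SE 0.203, adjusted p = 6.62e-13). SLC16A1 differed little, at 155, 143 and 177 CPM by median in PANC1, COLO357 and SUIT2.

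The other HIF targets ran in opposite directions across lines. CA12 went from 0.454, 0.916 and 2.0 CPM in PANC1 to 11.04, 14.7 and 22.9 in COLO357 and 31.97, 64.6 and 112 in SUIT2, without overlap, and PANC1 lay under SUIT2 by -6.13 (SE 0.379, adjusted p = 3.39e-11). ADM had the reverse order, at 132, 223 and 292 CPM in PANC1, 30.9, 49.2 and 55.2 in COLO357 and 8.23, 10.9 and 14.3 in SUIT2, also without overlap, and PANC1 exceeded SUIT2 by 4.29 (SE 0.224, adjusted p = 1.89e-13). BNIP3 was highest in PANC1 as well, at 21.7, 24.6 and 27.2 CPM beside 4.27, 7.04 and 12.5 in SUIT2 and 2.16, 2.86 and 4.48 in COLO357, with 39 pseudogenes that together held as many reads (100.2%). BNIP3L was lowest in COLO357, at 11.4, 25.5 and 45.5 CPM, under PANC1 at 81.2, 94.3 and 109.5 and SUIT2 at 50.2, 83.8 and 110.2. NDRG1 lay under both other lines in PANC1, at 16.1 CPM by median beside 44.8 and 52.2. P4HA1 and PFKFB4 were called in no line contrast. The calls of ARNT (PANC1 against COLO357), EPAS1 (SUIT2 against either), P4HA2 (PANC1 against SUIT2), VEGFA, PDK1 and SLC16A1 (COLO357 against SUIT2) were each lost in 1 to 10 alternatives, and the other line calls for which alternatives were run held in all of them.

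Within gene families the lines differed in the share of single members. To compare genes, levels were divided by the exon length of each gene, and the shares below are of the summed CPM per kb. HK2 made up 0.781% to 9.78% of HK1 and HK2 in PANC1 (median 4.25%), 7.54% to 17.0% in COLO357 (10.1%) and 18.3% to 47.5% in SUIT2 (35.5%), so that SUIT2 stood clear of the others. Of the 2 lactate transporters, SLC16A3 took 7.17% to 11.3% in SUIT2, 29.8% to 40.8% in PANC1 and 45.1% to 69.5% in COLO357, with no overlap. Of EGLN1 and EGLN3, the share of EGLN3 was 11.5% to 28.4% in SUIT2, 15.1% to 31.6% in COLO357 and at most 1.11% in PANC1. EPAS1 made up 10.8% to 39.2% of the 2 HIF alpha subunits in SUIT2, 7.21% to 30.4% in PANC1 and 11.9% to 23.8% in COLO357, and the lines overlapped. PFKP was the main phosphofructokinase gene in every line, with medians of 90.3%, 77.4% and 81.0% in PANC1, COLO357 and SUIT2. PFKFB3 had a median share of 97.2% of PFKFB3 and PFKFB4 in SUIT2, 77.7% in COLO357 and 70.6% in PANC1. ALDOC stayed at or under 3.26% of the aldolases in all 18 libraries.

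**Figure D5:**
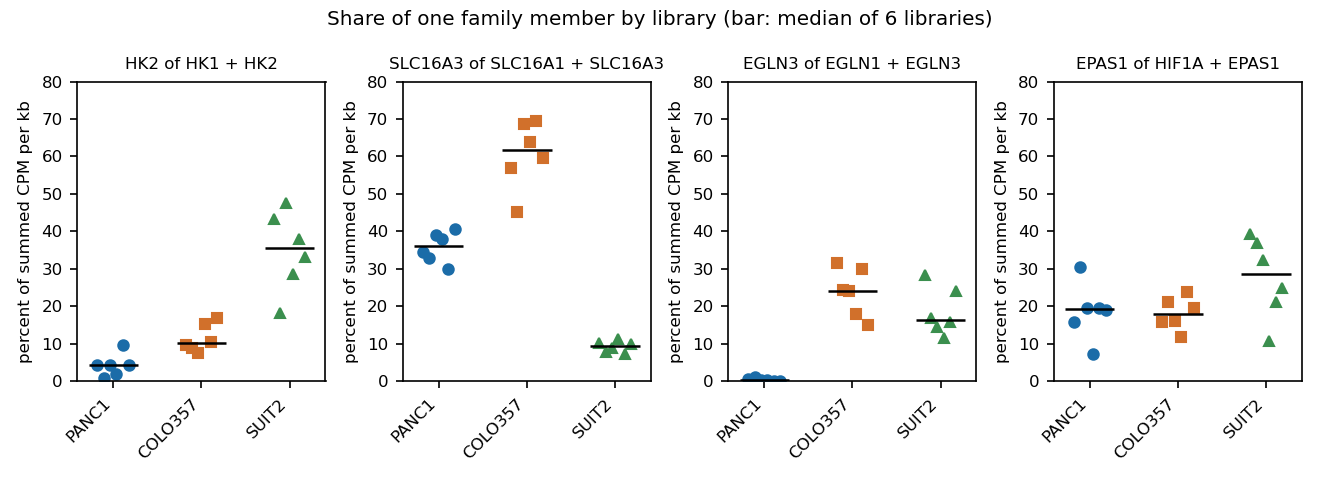
Percent of the summed CPM per kb of a gene family taken by one member, with 1 point per library, 6 per line, and a bar at the median. The SLC16A3 share falls to 7.17% to 11.3% in SUIT2, the HK2 share is highest there, and the EPAS1 shares of the 3 lines overlap.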

How the data were processed

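Ribosome-depleted total RNA (Ribo-Zero Gold, TruSeq stranded kit) of 18 libraries was read as 100 nt paired ends on 7 lanes, per the labels' protocols. The deposited values are raw, unnormalized counts, each the number of read pairs on an Ensembl gene. The authors' tools were FastQC, TopHat2, HTSeq and edgeR on hg19, per the submitters' processing notes. Their versions, the annotation release, the HTSeq strand setting and each library's pool: not given in the sources used here. Overlapping and antisense genes and pseudogenes may therefore share reads. The 5 entries that name no gene (33.0% to 53.4% of read pairs) were left out. Symbols, exon lengths, overlaps and pseudogenes came from GENCODE v29 (GRCh38, not the authors' build), which named 52181 identifiers.

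Genes were filtered by expression in edgeR 4.0.16 (R 4.3.3; minimum count 10, minimum total 15), scaled by TMM (factors 0.946 to 1.06) and fitted over all 18 libraries with robust quasi-likelihood. Cell line plus target (13 residual degrees of freedom, coefficient of variation 0.239), cell line plus siRNA (10 and 0.183) and 9 groups of line by target (9 and 0.253) were the models; in the last, the lone control of a line is assumed to vary like the other groups. Each siRNA was fitted with the lines as replicates. SE was derived as the absolute log2 fold change divided by the root of F. CPM used TMM library sizes, and library changes a prior count of 2. A floor of 3 counts equals 0.0934 to 0.211 CPM. Alternatives were median-of-ratios size factors, 2 other filters, DESeq2 1.42.0, limma 3.58.1 voom with siRNA as a random block, and left-out libraries. The model fits were tested on simulated data. No pair of libraries of a group looked like 1 library deposited again (chi-square at least 23.9 per gene).

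The 38 genes, their roles and the other gene lists were chosen with earlier results of these data known. Named with values were listed genes called in a test involving an siRNA, the smallest p of each role for each target, the largest line differences of each role and direction, and called genes of the other lists.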

Additional observations from a re-analysis of the deposited data

How the results depend on the processing

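No listed gene was called for KMT2D or KMT2C siRNA against control, or for a difference of either effect between lines, in any of the alternatives run; the line tests could not be fitted without a control. Counts of called genes for the line contrasts stayed within 31 to 34, 23 to 26 and 22 to 25 when a library was left out (PANC1 against COLO357, PANC1 against SUIT2, COLO357 against SUIT2). With siRNA as a random replicate block, which was fitted in limma-voom and so changed the tool as well, they were 34, 27 and 25 (33, 26 and 25 in edgeR), KMT2D and KMT2C against control stayed at 0, and KMT2C against KMT2D siRNA went from 1 to 0. Without the libraries above 20% in no annotated feature the line contrasts gave 33, 25 and 23. Shared siRNA numbers are shared reagents rather than shared cultures. The count for KMT2C against KMT2D siRNA was 3 without a filter and 2 with DESeq2. KMT2D siRNA2 against control (1) gave 3 without a filter, 2 with at least 1 CPM in at least 6 libraries, 2 with DESeq2 and 0 without the libraries above 20% in no annotated feature. Without a filter KMT2C siRNA1 gave 2, KMT2C siRNA2 gave 3, KMT2C siRNA3 gave 2 and the test among KMT2C siRNAs gave 7. KMT2C siRNA2 gave 3 with DESeq2, and without the libraries above 20% it gave 0 and the test among KMT2C siRNAs 1. The cause of these moves was not tested.

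Leaving out each library gave 1 to 4 calls for KMT2D siRNA1 against control (4 without COLO357 KMT2D siRNA1), 0 to 1 for KMT2D siRNA2 (0 without the SUIT2 control or SUIT2 KMT2D siRNA2), 0 to 1 for KMT2C siRNA1, 0 to 3 for KMT2C siRNA2 (3 without COLO357 KMT2C siRNA2), 0 to 1 for KMT2C siRNA3, 1 to 6 between the KMT2D siRNAs, 0 to 3 among the KMT2C siRNAs and 1 to 2 between the targets. Of values below the threshold that changed sign, CA9 for KMT2D ran from -1.60 to 0.23 (the latter without the COLO357 control), P4HA1 for KMT2D from -0.043 (without the SUIT2 control) to 0.20, VEGFA for KMT2D from -0.18 (without SUIT2 KMT2D siRNA2) to 0.29, and BNIP3 for KMT2C from -0.32 (without the SUIT2 control) to 0.38, with -0.05 without SUIT2 KMT2C siRNA1. Depth limits CA9, SLC2A3, ANKRD37 and PANC1 EGLN3, which had few counts. Overlapping genes share 38.5% of CA9 and 35.2% of ANKRD37 exons.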

Other observations

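BNIP3, a mitophagy receptor, had the smallest p of the listed genes for a difference between lines in the KMT2C effect (unadjusted p = 0.00101, adjusted p = 1 by edgeR), so it did not pass. BNIP3 went from 27.2 CPM with control siRNA to 24.5, 25.8 and 24.7 with KMT2C siRNA1, siRNA2 and siRNA3 in PANC1, from 4.48 to 2.29, 2.92 and 2.16 in COLO357, and from 4.27 to 12.5, 8.66 and 8.92 in SUIT2. All 3 KMT2C libraries lay above control in SUIT2 and below it in COLO357 and PANC1, against 1 control library each. Over the 3 lines the log2 fold change was 0.05 (SE 0.261, adjusted p = 0.977). The pseudogenes of BNIP3 held as many reads as the gene (100.2%), and their part in this pattern was not tested.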
